A study of Homo sapiens with 12 samples.

Results

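The 10 genes described here encode secreted signals, measured in the established human pancreatic cancer line AsPC-1: the chemokines CXCL1, CXCL2, CXCL3, CXCL5, CXCL8 and CCL20 and the cytokines IL18, IL1A, IL6 and LIF. They were picked by name as chemokine and cytokine genes of the tumour cells and found by pairing Ensembl gene IDs with symbols. All 10 were among the 57820 gene IDs of the files, 9 of them exceeded 1 read per M counted reads (CPM) on average in at least 1 group, and the same 9 passed the filter on low counts that left 16999 genes for testing. IL6 did not pass.

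The study measured polyadenylated RNA in 4 groups of 3 libraries, lettered A, B and C. All cells were transfected with an siRNA by lipid reagent, either a scrambled control (siControl) or one against ARNT (siARNT), and each siRNA was combined with normoxia (21% O2) or with hypoxia (1% O2 for 24 h). RNA was taken 48 h after transfection in all 4 groups. The model is 1 cell line grown without other cell types. The labels do not say whether A, B and C are separate cultures or wells of the same culture, so p-values measure the spread between these libraries, which may be technical.

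ARNT is the constant partner of the oxygen-sensitive HIF alpha subunits, and the pair binds short DNA elements with the core ACGTG or GCGTG. The CXCL genes of this set encode chemokines that attract neutrophils through the receptors CXCR1 and CXCR2, while CCL20 attracts lymphocytes and dendritic cells through CCR6. IL18 and IL1A belong to the interleukin-1 family, LIF and IL6 signal through receptors that share the subunit gp130 (IL6ST), and the promoters of many such genes are known to bind NF-kB and AP-1.

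The siRNA target was measured first. ARNT stood at 60.7 to 63.6 CPM in normoxia siControl, 12.8 to 14 in normoxia siARNT, 64.9 to 72.2 in hypoxia siControl and 14.1 to 16 in hypoxia siARNT, so its level matched the siRNA label in all 12 libraries. Gene counts per library totalled 38.53 to 84.34 M. All 8 epithelial markers were present above 1 CPM (EPCAM at 794 to 1040 CPM), whereas CD3E had no read and PTPRC, CDH5 and COL1A1 stayed under 0.2 CPM. Of the 7 leukocyte and 5 fibroblast markers, LYZ (130 to 229 CPM) and LUM (335 to 592 CPM) exceeded 1 CPM on average. The libraries differed in how log2 level followed the GC content of genes, with slopes from -0.205 to 0.238 per 10 percentage points of GC in 11 libraries and 0.424 in normoxia siARNT B.

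Levels of different genes were set side by side only per length, as reads per kilobase of the gene's joined exons per M counted reads (RPKM), with approximate lengths from GENCODE 29. IL18 was the most abundant of the 10, at a mean of 68.8 RPKM over the 12 libraries. LIF followed at 11.3 and CCL20 at 6.73 RPKM. CXCL8 (2.3), CXCL2 (1.87), IL1A (1.8) and CXCL5 (1.78) lay close together, with ranges over the libraries that overlapped. CXCL3 and CXCL1 were lower, at 0.984 and 0.727 RPKM. IL6, a cytokine of the acute phase response, had 4 reads in all: 2 in normoxia siControl C, 2 in hypoxia siControl A and none in the other 10 libraries. A count of 3 corresponds to 0.0356 to 0.0779 CPM at these depths, and IL6 was not compared further.

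Hypoxia with the control siRNA moved 5 of the 9 tested genes, in both directions. IL18, IL1A and CCL20 rose, CXCL2 and CXCL5 fell, and CXCL1, CXCL3, CXCL8 and LIF did not pass the test. Genes counted as called had an adjusted p under 0.05 in edgeR's quasi-likelihood test with Benjamini-Hochberg adjustment over all tested genes, and 25.3% of all genes were called in this comparison (10.4% higher and 14.9% lower). The median log2 fold change of the 9 genes was 0.04, beside 0.02 over all tested genes. In 6 of the 9 genes the 2 groups did not overlap, beside 46.8% of all genes.

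Under siARNT the same oxygen change gave 1 call among the 9 genes, the fall of CXCL5, beside 4.09% of all genes (2.21% higher and 1.89% lower). The median log2 fold change was -0.22, against -0.04 over all genes, and in 3 of the 9 genes (CXCL2, CXCL5 and CCL20) the groups did not overlap, beside 22.2% of all genes. When the hypoxia change was compared directly between the siRNAs (the interaction, siARNT minus siControl), none of the 9 genes was called by edgeR or by DESeq2, beside 4.69% of all genes in edgeR's test (2.49% higher and 2.19% lower). IL18 and IL1A had unadjusted p-values of 0.00701 and 0.0318 in that test, and no other member was under 0.05. With a correction of each library for GC content, IL18 (-0.48, adjusted p 0.000109) and IL1A (-0.69, adjusted p 0.00867) were called, with a smaller hypoxia change under siARNT. With that correction and the library letters as a block, IL18 (-0.47, adjusted p 8.17e-05) and IL1A (-0.7, adjusted p 0.00631) were called as well. In that fit 3293 of all genes were called for the interaction, beside 797 without the correction or the block.

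Knockdown of ARNT in normoxia gave 2 calls among the 9 genes, beside 20.2% of all genes (9.42% higher and 10.8% lower). IL18 fell and CXCL2 rose, and in 5 of the 9 genes the groups did not overlap, beside 46.5% of all genes. In hypoxia it gave 3 calls, beside 29.1% of all genes (14.4% higher and 14.7% lower): IL18 and IL1A fell and CXCL2 rose. The groups of these 3 genes did not overlap, beside 40.3% of all genes. In RNA from whole wells, fewer cells that express a gene and less of its RNA per cell cannot be told apart. The comparisons share libraries pairwise (hypoxia in siControl and siARNT in normoxia both use normoxia siControl, for example), so their values are given side by side and not correlated.

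**Figure D1:**
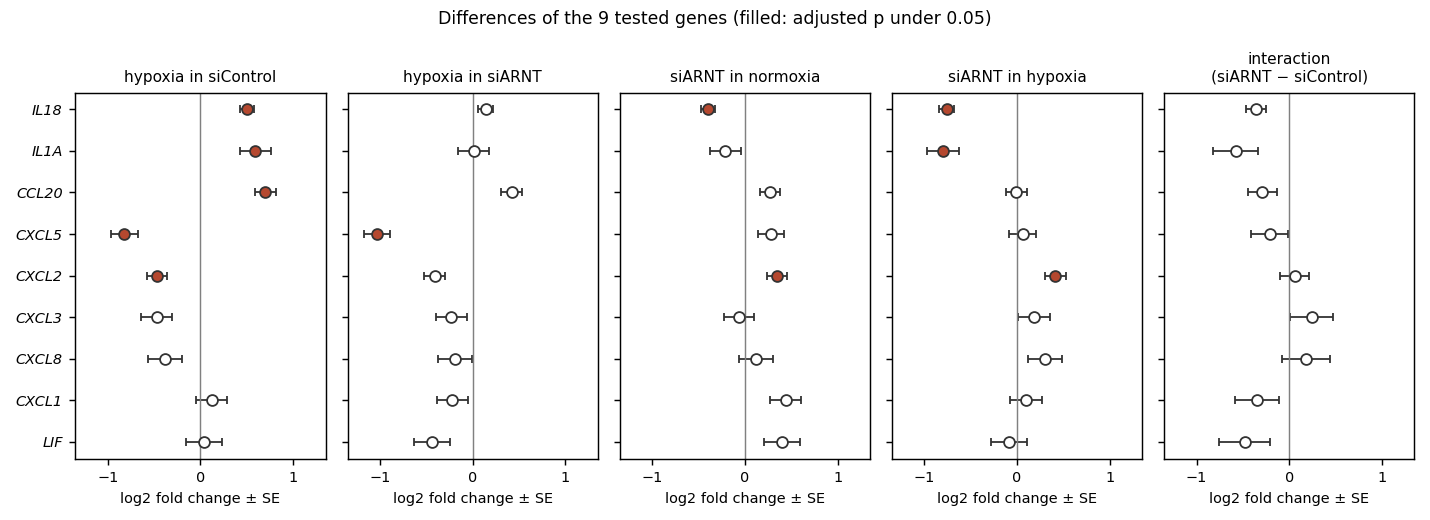
Log2 fold change ± SE (horizontal axis) of the 9 tested genes in 4 comparisons and in the interaction, which subtracts the siControl response to hypoxia from the siARNT response. Filled points have an adjusted p under 0.05: 5 genes for hypoxia in siControl, CXCL5 alone for hypoxia in siARNT, 2 and 3 genes for siARNT in normoxia and in hypoxia, and none for the interaction.

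IL18 (ENSG00000150782.7) encodes a cytokine that is stored as a precursor, is cut by caspases and drives interferon gamma production in lymphocytes. It measured 185, 175 and 181 CPM in normoxia siControl A, B and C and 264, 254 and 247 in hypoxia siControl. In normoxia siARNT the values were 144, 126 and 140, and in hypoxia siARNT 169, 144 and 138. The 3 hypoxia siControl libraries stood above all others, and both siARNT groups stood below both siControl groups without overlap.

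Hypoxia raised IL18 1.41-fold in siControl (log2 0.5, SE 0.078, adjusted p 0.000699). In siARNT the log2 difference was 0.14 (SE 0.078, adjusted p 0.338). ARNT knockdown lowered it by 1.32-fold in normoxia (log2 -0.4, SE 0.078, adjusted p 0.00483, or -0.24 and 0.000704 with the GC correction) and by 1.69-fold in hypoxia (log2 -0.76, SE 0.078, adjusted p 2.52e-05). The difference between the hypoxia changes was -0.36 (SE 0.11, adjusted p 0.0903), and without hypoxia siARNT A, the highest of its group, it was -0.43 (adjusted p 0.0459). The summed level of the 5 fibroblast markers, which is nearly all LUM, was also highest in hypoxia siControl (567 to 593 CPM, against 336 to 469 in the other groups), while COL1A1, COL1A2, DCN and PDGFRB each stayed under 1 CPM. The summed level of the 7 leukocyte markers, nearly all LYZ, was lower with siARNT in normoxia (165 to 189 against 214 to 230 CPM) and in hypoxia (131 to 159 against 185 to 220), while PTPRC was at most 0.0937 CPM and CD3E had no read. The part of these markers' RNA in the IL18 differences was not tested.

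IL1A (ENSG00000115008.5), the gene of interleukin-1 alpha, an alarm signal that is active as a precursor, was expressed far lower but had a similar profile. Its values were 3.9, 3.54 and 3.4 CPM in normoxia siControl, 3.08, 2.74 and 3.55 in normoxia siARNT, 6.09, 5.03 and 5.24 in hypoxia siControl and 4.02, 2.81 and 2.56 in hypoxia siARNT. The hypoxia siControl libraries were above the other 9, and the remaining groups overlapped. Hypoxia raised IL1A 1.51-fold in siControl (log2 0.59, SE 0.167, adjusted p 0.0214). In siARNT the log2 difference was 0.01 (SE 0.171, adjusted p 0.978), and knockdown in hypoxia lowered the gene by 1.74-fold (log2 -0.8, SE 0.17, adjusted p 0.00411).

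The call of IL1A for hypoxia in siControl was lost without normoxia siControl B (log2 0.58, adjusted p 0.066), without normoxia siControl C (0.56, 0.0772) or without hypoxia siControl A (0.5, 0.0868). IL1A rests on 105 to 404 reads per library, and IL18 on 5682 to 17520.

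The log2 levels of IL18 and IL1A followed each other with Pearson's r of 0.94 over the 12 libraries and 0.89 after the group means were removed, as a description of libraries that share depth and GC profile. Of 9731 other genes at a mean of at least 5 CPM, those most like IL18 over the 12 libraries were DGKH (r = 0.993), a lipid kinase, and SLC1A1 (r = 0.99), a glutamate transporter. Most like IL1A were SLC17A5 (r = 0.973), a lysosomal sialic acid transporter, and BMP2 (r = 0.968), a ligand of the TGF-beta family.

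The window before the start of IL1A holds both kinds of HIF core. It is printed here from RefSeq (GRCh38.p14) because, of the 8 members with a window, IL1A was the only one with the ACGTG core. It runs from 160 bases before to 10 bases after the start, at chr2:112784391-112784560 on the minus strand. The capitals mark, in order, the ACGTG core and the GCGTG core (both read on the opposite strand) and 2 matches to the AP-1 element TGANTCA.
IL1A: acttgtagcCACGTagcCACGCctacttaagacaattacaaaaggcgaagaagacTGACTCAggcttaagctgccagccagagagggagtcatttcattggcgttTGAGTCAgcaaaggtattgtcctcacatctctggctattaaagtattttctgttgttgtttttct
The 2 HIF cores begin 151 and 143 bases before this start, and a second RefSeq start of IL1A lies upstream. These short letters are common: on either strand, ACGTG occurs in 21.4%, GCGTG in 36.5% and TGANTCA in 7.71% of the 35116 RefSeq windows of 300 bases. A match describes the sequence and does not measure binding.

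CCL20 (ENSG00000115009.7), a chemokine ligand of CCR6, rose with hypoxia and did not differ between the siRNAs in hypoxia beyond the spread. It measured 7.63, 7.92 and 8.06 CPM in normoxia siControl and 12.6, 11.6 and 14.2 in hypoxia siControl. In siARNT it measured 10.1, 8.89 and 9.48 in normoxia and 14.7, 12 and 11.4 in hypoxia. All 6 hypoxia libraries were above all 6 normoxia libraries, and normoxia siARNT was above normoxia siControl without overlap.

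Hypoxia raised CCL20 1.63-fold in siControl (log2 0.7, SE 0.113, adjusted p 0.000805). In siARNT the log2 difference was 0.42 (SE 0.112, adjusted p 0.0599), which passed the threshold with DESeq2 (adjusted p 0.0256), with scaling by total count (0.0286) and with the GC correction (0.00319). Knockdown gave a log2 difference of 0.27 in normoxia (SE 0.112, adjusted p 0.0975), which was called with the GC correction (0.4, adjusted p 0.00195) and with scaling by total count (0.31, 0.0495), and of -0.01 in hypoxia (SE 0.112, adjusted p 0.948). The interaction was -0.29 (SE 0.158, adjusted p 0.327). The genes most like CCL20 over the libraries were PIWIL1 (r = 0.972) and ZNF608 (r = 0.971).

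CCL20 was also the member with a splice choice in steady use. Of 17 splicing events listed for the members (15 in IL18, 1 in CCL20 and 1 in LIF), 13 had at least 10 junction reads in every library, and in 1 of these each form took at least 5% of the reads throughout. This is a pair of 3' splice sites 3 bases apart in CCL20, which begin the exon at position 228680170 or 228680173 of chromosome 2 in the deposited coordinates. The submitters' processing notes name GRCh38.p10, but exon positions of the event files did not match GRCh38, so their build is uncertain. Use of a tandem pair of this kind adds or removes a single codon where the exon is coding.

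The distal site took 42.1, 36.2 and 48.4% of the junction reads in normoxia siControl A, B and C, and 51.3, 52.7 and 56.6% in hypoxia siControl. In siARNT the shares were 46.4, 47.7 and 52.7% in normoxia and 49.2, 52.1 and 53.1% in hypoxia. The siControl groups did not overlap, and the siARNT groups did. Each share rests on 80 to 211 junction reads.

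The mean share of the distal site was 42.3% ± 6.09 in normoxia siControl and 53.5% ± 2.78 in hypoxia siControl (SD, n = 3), a difference of 11.3 percentage points (exact two-sided permutation p = 0.1, the smallest that 3 against 3 allows, and 0.4 after adjustment over 4 comparisons). The other 3 comparisons gave differences of 2.5 (hypoxia in siARNT), 6.7 (siARNT in normoxia) and -2.1 points (siARNT in hypoxia), with exact permutation p-values of 0.3, 0.3 and 0.5. None of these could pass a threshold of 0.05 in this design.

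**Figure D2:**
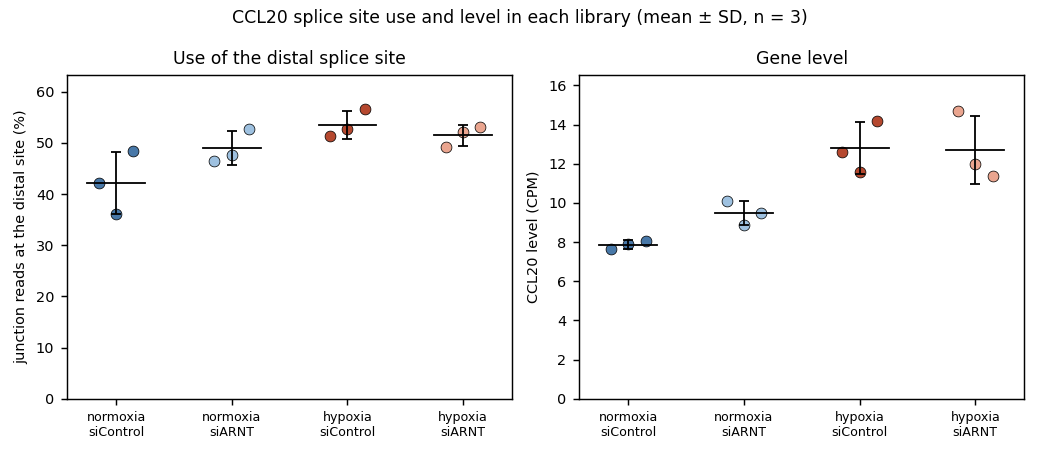
Left, share of CCL20 junction reads that used the distal of the paired 3' splice sites (percent). Right, level of CCL20 in reads per M counted (CPM). Points are libraries A, B and C from left to right and bars are the mean ± SD (n = 3). The share ran from 36.2 to 48.4% in normoxia siControl and from 51.3 to 56.6% in hypoxia siControl, and the level rose from 7.87 to 12.8 CPM on average.

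The other events used 1 form almost throughout, apart from 2 IL18 skips on few reads. In IL18, an alternative 3' splice site was used in 96.4 to 98% of the reads, and the exon skip with the most reads (1234 to 3896) was included in 98.2 to 99.9%. The exon skip of LIF was included in 91.5 to 100% over the libraries, on 67 to 263 reads. The 2 IL18 skips with 18 to 63 reads per library ranged more widely (51.7 to 100% and 71.4 to 100%). In the first, inclusion was 100% in every normoxia siControl library and 51.7 to 100% in normoxia siARNT. It was 55.6 to 88.5% in hypoxia siControl and 56.5 to 81.4% in hypoxia siARNT. These differences were not tested.

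The CXCL genes lie together on chromosome 4, in the order CXCL8, CXCL6, PF4V1, CXCL1, PF4, PPBP, CXCL5, CXCL3 and CXCL2 in the RefSeq table. The promoters of the 5 members are printed because all 5 hold the same NF-kB type element, GGAATTTCC, in the sense direction and at a similar distance from the start. It is the longest stretch that the 5 windows share. Each sequence runs from 160 bases before to 10 bases after the RefSeq start (GRCh38.p14), written 5′ to 3′ in the direction of the gene: CXCL1 at chr4:73869233-73869402 (plus strand), CXCL2 at chr4:74099186-74099355 (minus), CXCL3 at chr4:74038680-74038849 (minus), CXCL5 at chr4:73998668-73998837 (minus) and CXCL8 at chr4:73740409-73740578 (plus). Capitals mark this element with the G before it where this completes a longer form (GGG, any 2 bases, then TTTCC), and in CXCL8 also the AP-1 element.
CXCL1: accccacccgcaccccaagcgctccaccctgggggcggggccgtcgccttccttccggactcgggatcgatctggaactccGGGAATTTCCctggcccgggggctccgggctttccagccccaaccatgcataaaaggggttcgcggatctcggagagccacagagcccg
CXCL2: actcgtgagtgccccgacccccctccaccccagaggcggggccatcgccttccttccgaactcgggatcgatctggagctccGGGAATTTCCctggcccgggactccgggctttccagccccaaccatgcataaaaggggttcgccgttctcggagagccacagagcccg
CXCL3: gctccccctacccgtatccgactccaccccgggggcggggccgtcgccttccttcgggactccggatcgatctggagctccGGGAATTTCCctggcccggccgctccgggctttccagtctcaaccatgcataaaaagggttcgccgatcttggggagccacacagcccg
CXCL5: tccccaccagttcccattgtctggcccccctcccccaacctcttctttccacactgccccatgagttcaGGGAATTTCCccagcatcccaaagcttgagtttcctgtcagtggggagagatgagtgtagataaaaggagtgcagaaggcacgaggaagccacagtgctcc
CXCL8: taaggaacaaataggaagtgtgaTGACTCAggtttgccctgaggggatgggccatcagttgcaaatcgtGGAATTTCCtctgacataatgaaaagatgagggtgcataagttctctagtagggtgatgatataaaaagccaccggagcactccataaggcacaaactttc
The shared element begins 78 bases before the start in CXCL1 and CXCL3, 77 in CXCL2, 90 in CXCL5 and 91 in CXCL8. On either strand, it occurs in 0.461% of all 35116 windows. The element was chosen as a stretch present in all 5 genes, so this share is no test of them. Of these genes, 4 also match the longer form, which overlaps the shared element and is found in 1.91% of windows.

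CCL20 carries the longer form on the opposite strand, and is printed for comparison with the CXCL set, at chr2:227813682-227813851 on the plus strand. The capitals mark that element, which begins 79 bases before the start, and a GCGTG core on the opposite strand. CXCL5 has a GCGTG core as well, upstream of the stretch printed and on the opposite strand, beginning 183 bases before its start.
CCL20: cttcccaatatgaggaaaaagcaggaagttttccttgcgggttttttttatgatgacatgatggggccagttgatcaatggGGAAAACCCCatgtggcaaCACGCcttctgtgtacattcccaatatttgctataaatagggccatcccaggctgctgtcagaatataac
IL6 has the longer form as well, 73 bases before its start. The RefSeq table used here held windows for 8 of the 10 genes, and IL18 and LIF were not matched. For hypoxia with siControl, CCL20 rose (log2 0.7) and CXCL2 (-0.47) and CXCL5 (-0.82) fell. CXCL3 (-0.47), CXCL8 (-0.38) and CXCL1 (0.12) did not pass the test. Differences between these genes, and any link of the elements to the responses, were not tested.

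**Figure D3:**
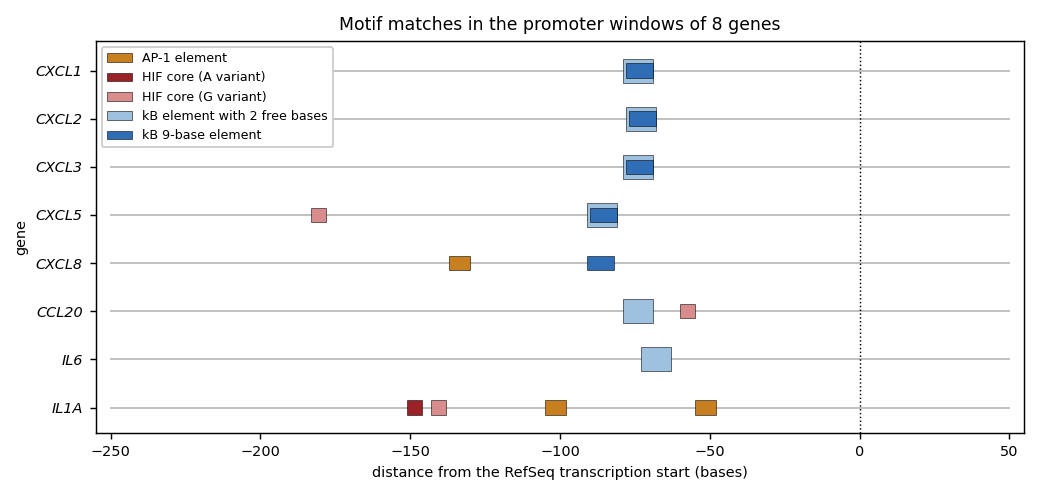
Matches to 5 motifs in the RefSeq promoter windows of 8 genes, by distance in bases from the transcription start (dotted line), from 250 bases before to 50 after it. Boxes on each line mark the matches, and the NF-kB type elements (kB, blue) of CXCL1, CXCL2, CXCL3, CXCL5 and CXCL8 begin 77 to 91 bases before the start.

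CXCL5 (ENSG00000163735.6) gave the largest fall of the set. It measured 5.8, 5.01 and 5.24 CPM in normoxia siControl and 2.87, 3.35 and 2.9 in hypoxia siControl. In siARNT it measured 6.79, 5.39 and 7.32 in normoxia and 3.46, 3.35 and 2.7 in hypoxia. Every hypoxia library was below every normoxia library, with either siRNA.

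Hypoxia lowered CXCL5 by 1.76-fold in siControl (log2 -0.82, SE 0.143, adjusted p 0.00141) and by 2.05-fold in siARNT (log2 -1.03, SE 0.143, adjusted p 0.00422). The second call was lost in a fit to the 6 siARNT libraries alone (log2 -1.02, adjusted p 0.0717). The interaction was -0.21 (SE 0.201, adjusted p 0.555), and the effect of siARNT was 0.28 in normoxia (SE 0.138, adjusted p 0.155, or 0.42 and 0.00308 with the GC correction), beside 0.06 in hypoxia (SE 0.146, adjusted p 0.78). The genes most like CXCL5 were PDHX (r = 0.955), a subunit of the pyruvate dehydrogenase complex, and the mitochondrial gene MT-ND6 (r = 0.954).

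CXCL2 (ENSG00000081041.8) fell with hypoxia and rose with siARNT. Its values were 2.97, 2.65 and 2.91 CPM in normoxia siControl, 3.55, 3.51 and 3.81 in normoxia siARNT, 2.04, 2.28 and 1.85 in hypoxia siControl and 2.74, 2.69 and 2.73 in hypoxia siARNT. Hypoxia siControl was the lowest group and normoxia siARNT the highest, and neither overlapped any other group. Normoxia siControl and hypoxia siARNT overlapped.

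The fall of CXCL2 in hypoxia with siControl was 1.39-fold (log2 -0.47, SE 0.112, adjusted p 0.00893), and with siARNT the log2 difference was -0.41 (SE 0.11, adjusted p 0.0593, or -0.48 and 0.00702 with the GC correction). Knockdown raised it 1.27-fold in normoxia (log2 0.35, SE 0.109, adjusted p 0.0432) and 1.32-fold in hypoxia (log2 0.41, SE 0.114, adjusted p 0.0184). The call in normoxia was lost in 14 of 21 alternatives, among them DESeq2 (adjusted p 0.0565) and the fit without any 1 library of the 2 groups compared (0.0674 to 0.121). The call in hypoxia was lost in 4 of 21 alternatives: with no filter on low counts (0.4, 0.135), in a fit to the samples compared alone (0.43, 0.0593), and without hypoxia siControl A (log2 0.4, adjusted p 0.0631) or C (0.33, 0.0703). The genes most like CXCL2 were SEPHS1 (r = 0.976) and CKLF (r = 0.973), which encodes a chemokine-like factor.

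CXCL3 (ENSG00000163734.4), the close relative of CXCL2, measured 2.16, 2.73 and 2.62 CPM in normoxia siControl and 1.75, 2.15 and 1.5 in hypoxia siControl. In siARNT it measured 2.83, 2.15 and 2.18 in normoxia and 2.17, 1.92 and 2.02 in hypoxia. The siControl groups were adjacent without overlap, and the siARNT groups overlapped. The log2 difference for hypoxia in siControl was -0.47 (SE 0.167, adjusted p 0.0576), of the same size as for CXCL2 with a larger error. It was called without hypoxia siControl B (log2 -0.6, adjusted p 0.0361), without normoxia siARNT A (-0.47, 0.048) or B (-0.48, 0.042), and with the GC correction (-0.47, 0.0278).

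CXCL8 (ENSG00000169429.6), the gene of interleukin 8, measured 5.13, 5.73 and 5.62 CPM in normoxia siControl and 5.2, 3.24 and 4.21 in hypoxia siControl. In siARNT it measured 6.1, 4.58 and 7.26 in normoxia and 5.54, 4.85 and 5.28 in hypoxia. The groups overlapped in all 4 comparisons, and the libraries of hypoxia siControl and of normoxia siARNT were widely spread. The log2 differences were -0.38 for hypoxia in siControl (SE 0.185, adjusted p 0.167), -0.19 in siARNT (SE 0.183, adjusted p 0.571) and 0.3 for siARNT in hypoxia (SE 0.186, adjusted p 0.253). With the GC correction the first (-0.42, adjusted p 0.0237) and the third (0.46, adjusted p 0.0145) were called.

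CXCL1 (ENSG00000163739.4) was the lowest of the tested members, on 34 to 100 reads per library. Its values were 0.739, 0.962 and 0.761 CPM in normoxia siControl, 1.17, 1.03 and 1.12 in normoxia siARNT, 0.784, 1.03 and 0.859 in hypoxia siControl and 0.964, 1.05 and 0.828 in hypoxia siARNT. Normoxia siARNT stood above normoxia siControl without overlap, and the hypoxia groups overlapped. The log2 difference for siARNT in normoxia was 0.44 (SE 0.165, adjusted p 0.0734, or 0.55 and 0.0208 with the GC correction), and the other 3 differences ran from -0.22 to 0.12, with adjusted p-values of 0.473 or more.

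Likeness to other genes was weaker for these 3: the closest were NDUFB1 (r = 0.851) and HERC2P9 (0.837) for CXCL3, ZNF354B (0.923) and ENTPD7 (0.91) for CXCL8, and DDT (0.768) and DHRSX (0.764) for CXCL1. The CXCL genes are close relatives in sequence. No stretch of 125 bases, the read length given in the labels, of the longest GENCODE 29 transcript of CXCL1, CXCL2, CXCL3, CXCL5 or CXCL8 recurred exactly in a transcript of another gene, and the longest exact match was 37 bases, between CXCL2 and CXCL3. Over the 12 libraries the log2 levels of CXCL2 and CXCL5 had r = 0.83, those of CXCL1 and CXCL8 r = 0.1, and those of CXCL2 and IL18 r = -0.85. After the group means were removed these were 0.55, -0.24 and 0.29, again as descriptions of libraries that share depth and GC profile.

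LIF (ENSG00000128342.4), a cytokine of the gp130 family that is known to be made by pancreatic cancer cells, was the second most abundant member and passed no test. Its values were 38.8, 44.7 and 40.7 CPM in normoxia siControl, 47.3, 70.8 and 45.2 in normoxia siARNT, 39.8, 51.4 and 36.8 in hypoxia siControl and 32.5, 39.2 and 49 in hypoxia siARNT. Normoxia siARNT B stood well above the other libraries. Normoxia siARNT was above normoxia siControl without overlap, and the hypoxia groups overlapped.

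The log2 differences of LIF were 0.04 for hypoxia in siControl (SE 0.193, adjusted p 0.894), -0.44 for hypoxia in siARNT (SE 0.193, adjusted p 0.222), 0.4 for siARNT in normoxia (SE 0.192, adjusted p 0.151) and -0.09 for siARNT in hypoxia (SE 0.193, adjusted p 0.781). Normoxia siARNT B is also the library with the steepest GC slope, and LIF has the highest GC content of the 10 genes, 56.9% against 33.4 to 50.5%. With the GC correction the difference for siARNT in normoxia was 0.1 (adjusted p 0.223) and that for hypoxia in siARNT was -0.3 (adjusted p 0.00309, called). Within groups the deviations of LIF ran opposite to those of CCL20 (r = -0.8) and IL18 (r = -0.75), whose GC content is 35.5% and 39.2%. These too are descriptions of libraries that share depth and GC profile, and the part of GC content in them was not tested. LIF was most like SELENOW and UBXN1 (r = 0.985 for both). The antisense genes LIF-AS1 and LIF-AS2 held at most 5 and 8 reads in a library.

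The receptors of these ligands and their antagonists were examined as a list of 15 genes, of which 9 were tested. The receptors of the neutrophil chemokines and of CCL20 were near 0: CXCR1, CXCR2 and CCR6 had at most 1 read in any library, and ACKR1 had none. The list had 6 calls for hypoxia in siControl (3 higher, 3 lower), 1 for hypoxia in siARNT, 5 and 6 for siARNT in normoxia and in hypoxia, and 3 for the interaction. The median log2 fold change was 0.2 for hypoxia in siControl, beside 0.02 over all genes. Counts of this list and of the other lists stand against 25.3% and 4.09% of all genes called for hypoxia in siControl and in siARNT, 20.2% and 29.1% for the knockdown in normoxia and in hypoxia, and 4.69% for the interaction.

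With hypoxia in siControl, the interleukin-1 receptor chains moved in opposite directions. IL1RAP, the shared accessory chain, measured 20.2, 19.6 and 18.7 CPM in normoxia siControl and 42.7, 39 and 40.1 in hypoxia siControl, and in siARNT 37.3, 34.2 and 39.5 in normoxia and 48.8, 46.1 and 41.7 in hypoxia. Normoxia siControl was far below the other 3 groups. Hypoxia raised IL1RAP in siControl (log2 1.06, SE 0.078, adjusted p 3.9e-06), as did siARNT in normoxia (0.92, SE 0.078, adjusted p 1.58e-05), and the interaction was -0.75 (SE 0.109, adjusted p 0.00306).

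IL1R1, the chain that binds interleukin-1 alpha and beta, measured 5.1, 4.97 and 5.14 CPM in normoxia siControl, 7.24, 6.63 and 6.77 in normoxia siARNT, 3.33, 3.54 and 4.06 in hypoxia siControl and 7.56, 8.2 and 6.84 in hypoxia siARNT. Hypoxia siControl was lowest and both siARNT groups were above both siControl groups. It fell with hypoxia in siControl (log2 -0.48, SE 0.107, adjusted p 0.00634) and rose with siARNT in normoxia (0.44, SE 0.105, adjusted p 0.0138) as well as in hypoxia (1.05, SE 0.107, adjusted p 2.35e-05).

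IL6R, the chain that binds interleukin 6, followed the same pattern as IL1R1, with group means of 58.6 (siControl) and 70.3 CPM (siARNT) in normoxia, and 41.6 (siControl) and 74.8 CPM (siARNT) in hypoxia. Its log2 change was -0.49 for hypoxia in siControl (SE 0.065, adjusted p 0.00023) and 0.85 for siARNT in hypoxia (SE 0.066, adjusted p 2.68e-06). LIFR, the receptor of LIF, rose with siARNT by 0.63 in normoxia (SE 0.105, adjusted p 0.00205) and by 0.66 in hypoxia (SE 0.105, adjusted p 0.000598). OSMR, which also pairs with gp130, had the direction of IL18: it rose with hypoxia in siControl (0.47, SE 0.077, adjusted p 0.000963) and fell with siARNT in hypoxia (-0.54, SE 0.078, adjusted p 0.000269).

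For IL18 itself, the receptor chain IL18R1 fell with hypoxia in siControl (-0.39, SE 0.129, adjusted p 0.0443), and IL18BP, the secreted protein that neutralises IL18, rose (0.33, SE 0.108, adjusted p 0.0419). These calls were lost in 13 and 15 of 22 alternatives. The partner chain IL18RAP had at most 6 reads in a library. IL6ST, the gp130 gene, was abundant at 199 to 302 CPM and was not called in any of the 5 comparisons.

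A wider list of 35 other chemokines and cytokines had 15 tested genes, since the other 19 found in the files were at or near 0 (TNF, CSF2 and CXCL10 at most 8, 9 and 15 reads in a library). It gave 4 calls for hypoxia in siControl, all higher, none for hypoxia in siARNT, 6 for siARNT in normoxia, all higher, and 8 for siARNT in hypoxia (5 higher, 3 lower), with medians of 0.21, -0.15, 0.46 and 0.05. For the interaction it gave 1 call, that of IL1B, with a median of -0.49 beside -0.02 over all genes. IL1B, IL15 and TNFSF15, a TNF family ligand, rose with hypoxia in siControl and fell with siARNT in hypoxia. Both of these comparisons use the hypoxia siControl libraries, and the interaction was not called for IL15 or TNFSF15.

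IL1B, the gene of interleukin-1 beta, measured 2.04, 2.23 and 2 CPM in normoxia siControl, 1.78, 1.43 and 1.55 in normoxia siARNT, 4.13, 3.42 and 3.56 in hypoxia siControl and 1.36, 1.12 and 1.19 in hypoxia siARNT. The order of the groups was that of IL18 and IL1A at the top and differed below it, with hypoxia siARNT lowest. Its log2 change was 0.83 for hypoxia in siControl (SE 0.131, adjusted p 0.000748) and -1.59 for siARNT in hypoxia (SE 0.138, adjusted p 6.41e-06), and the interaction was -1.2 (SE 0.192, adjusted p 0.0054).

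TNFSF15 reached 424, 449 and 310 CPM in hypoxia siControl, against 209 to 254 in normoxia siControl and 159 to 251 in the siARNT libraries. It rose by 0.75 with hypoxia in siControl (SE 0.152, adjusted p 0.00403) and its change with siARNT in hypoxia was -0.92 (SE 0.153, adjusted p 0.000957). IL15 had the values 0.48 (SE 0.125, adjusted p 0.014) and -0.66 (SE 0.126, adjusted p 0.00196). CXCL16, a membrane-bound chemokine, rose with siARNT by 0.52 in normoxia (SE 0.097, adjusted p 0.00369) and by 0.48 in hypoxia (SE 0.098, adjusted p 0.00293).

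The NF-kB list held 20 factors, inhibitors and feedback targets, of which 19 were tested. It gave 5 calls for hypoxia in siControl (3 higher, 2 lower), 1 for hypoxia in siARNT, 6 and 9 for siARNT in normoxia and in hypoxia, and 3 for the interaction, with medians between -0.2 and 0.18. RELA was not called in any comparison. TNFAIP3, the gene of the inhibitor A20, measured 70.3, 69.9 and 70.5 CPM in normoxia siControl, 68.9, 72.2 and 67.7 in normoxia siARNT, 86.2, 87.1 and 90 in hypoxia siControl and 61.6, 59.9 and 60.6 in hypoxia siARNT.

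Its level thus rose with hypoxia in siControl (log2 0.32, SE 0.048, adjusted p 0.000525) and fell with hypoxia in siARNT (-0.2, SE 0.048, adjusted p 0.0448, a call lost in 17 of 22 alternatives), and the interaction was -0.52 (SE 0.068, adjusted p 0.00151). NFKBIA, the gene of IkB alpha, rose with hypoxia in siControl (0.64, SE 0.147, adjusted p 0.00769) with values from 29.5 to 49.9 CPM in that group. CHUK, the kinase subunit IKK alpha, fell (-0.84, SE 0.108, adjusted p 0.000197). BIRC3, an inhibitor of apoptosis and NF-kB target, fell with siARNT in normoxia (-0.35, SE 0.102, adjusted p 0.0336) as well as in hypoxia (-0.72, SE 0.102, adjusted p 0.000253), while ICAM1 rose in both (0.97, SE 0.238, adjusted p 0.0162 and 0.98, SE 0.242, adjusted p 0.00992).

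The list of 12 AP-1 genes and relatives, which includes the C/EBP factors CEBPB and CEBPD, had 11 tested genes and gave 6 calls for hypoxia in siControl (5 higher, 1 lower), none for hypoxia in siARNT, none for siARNT in normoxia, 5 for siARNT in hypoxia, all lower (CEBPD among them, -0.95), and 4 for the interaction, all negative. The median log2 fold change was 0.37, -0.22, 0.08, -0.39 and -0.62 in that order. Of the 5 calls for siARNT in hypoxia, those of FOS and FOSL2 held in all 21 alternatives. Those of CEBPD and JUND were lost in 2, both with the GC correction, and that of MAFF in 7. FOS measured 8.15, 9.27 and 7.87 CPM in normoxia siControl, 7.54, 10.6 and 8.63 in normoxia siARNT, 30.7, 33.7 and 27.5 in hypoxia siControl and 8.9, 9.7 and 11.1 in hypoxia siARNT. The 3 hypoxia siControl libraries stood far above the other 9.

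FOS rose by 1.86 with hypoxia in siControl (SE 0.137, adjusted p 3.9e-06), and its interaction was -1.71 (SE 0.191, adjusted p 0.000471). FOSL2 had the same form, with group means of 74.6 (siControl) and 72.3 CPM (siARNT) in normoxia, 142 (siControl) and 74.3 CPM (siARNT) in hypoxia, and an interaction of -0.88 (SE 0.084, adjusted p 0.000178). JUN (0.49, SE 0.142, adjusted p 0.0242) and JUNB (1.09, SE 0.323, adjusted p 0.029) rose with hypoxia in siControl, and FOSL1 fell (-0.36, SE 0.121, adjusted p 0.046). These calls were lost in 4, 5 and 8 of 22 alternatives.

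A list of 10 factors that bind and destabilise or protect cytokine mRNAs was tested in full. The list gave 2 calls for hypoxia in siControl and 1 in siARNT, 2 calls for the knockdown in normoxia and 4 in hypoxia, and none for the interaction, with medians between -0.2 and 0.15. ZFP36L2, a decay factor, rose with hypoxia in siControl (0.46, SE 0.091, adjusted p 0.00301) and fell with siARNT in hypoxia (-0.65, SE 0.092, adjusted p 0.000257). The call of its rise was lost in 2 of 22 alternatives, both with the GC correction. ELAVL1, the stabilising protein HuR, moved the other way (-0.27, SE 0.05, adjusted p 0.00211 and 0.47, SE 0.05, adjusted p 3.45e-05). ZFP36, the gene of tristetraprolin, and ZC3H12A, the gene of regnase-1, were not called in any comparison.

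The last list held 19 genes of gp130 and STAT3 signalling and of the processing of interleukin-1 family cytokines, 16 of them tested, with 2 calls for hypoxia in siControl and 1 in siARNT, 3 for the knockdown in normoxia and 7 in hypoxia, and 1 for the interaction, with medians between -0.08 and 0.16. NLRP3, the inflammasome sensor, measured 1.85 to 2.25 CPM in normoxia with either siRNA, 5.57, 5.2 and 5.17 in hypoxia siControl and 3.29, 3.54 and 3.41 in hypoxia siARNT. It rose with hypoxia in siControl (1.38, SE 0.113, adjusted p 7.38e-06) and with siARNT too (0.75, SE 0.114, adjusted p 0.00612). CASP1, which cuts pro-IL18, had at most 5 reads in a library.

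CASP4, another caspase that is known to cut IL18, was well expressed and fell with siARNT in both oxygen states. It measured 89.1, 88.7 and 91.6 CPM in normoxia siControl, 52.8, 50.2 and 53 in normoxia siARNT, 92, 81.3 and 98 in hypoxia siControl and 52.3, 50.6 and 42.9 in hypoxia siARNT. The siRNA groups were far apart and the oxygen groups overlapped. The change with siARNT was -0.79 in normoxia (SE 0.083, adjusted p 8.18e-05) against -0.9 in hypoxia (SE 0.083, adjusted p 1.11e-05). SOCS3, the feedback inhibitor of gp130 signalling, rose with siARNT by 0.91 in normoxia (SE 0.19, adjusted p 0.00714) and by 0.98 in hypoxia (SE 0.189, adjusted p 0.00226), and STAT3 was not called in any comparison.

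**Figure D4:**
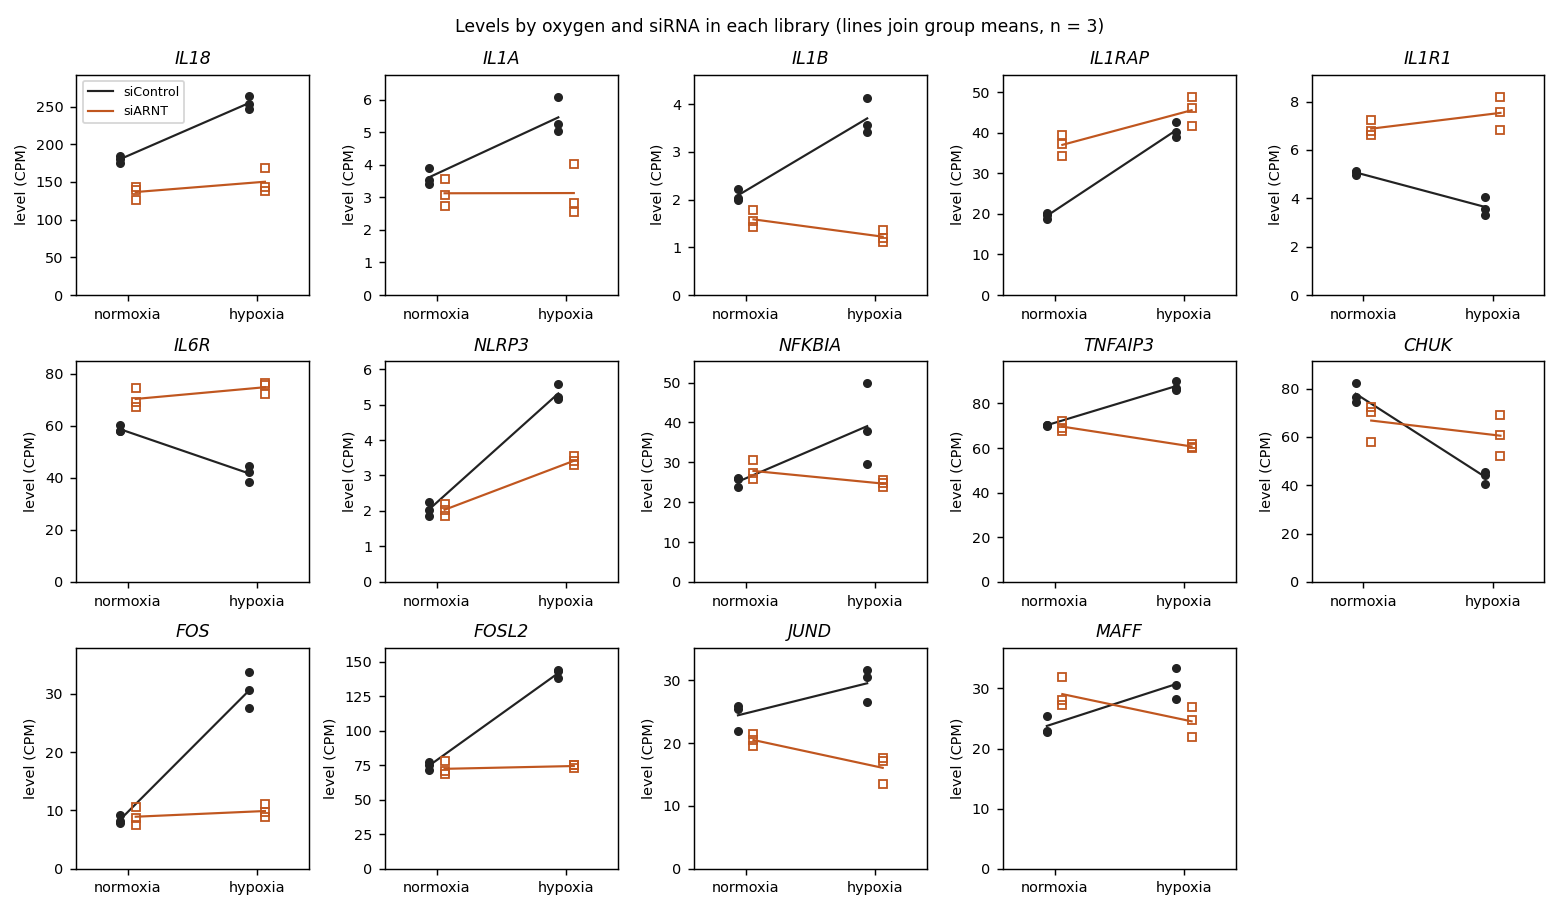
Level in reads per M counted (CPM) in normoxia and hypoxia with siControl (filled circles, black) and siARNT (open squares, orange). Points are libraries and lines join the group means (n = 3). IL18 and IL1A are followed by the 12 genes of the 6 lists whose interaction had an adjusted p under 0.05, such as FOS, which reached 27.5 to 33.7 CPM in hypoxia siControl and 8.9 to 11.1 in hypoxia siARNT.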

How the data were processed

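Per the labels' protocols, poly(A) RNA was made into stranded libraries and read single-end. The authors' deposited gene files hold raw counts per gene, and their deposited event files hold junction counts and the inclusion share as a fraction. The submitters' processing notes name STAR 2.4.2a, Trimmomatic and GRCh38.p10, but just 0.47% of the deposited exon positions matched GRCh38, so event coordinates were not converted. The counting settings, strand included, are not given in the sources used here.

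Counts from the 12 libraries (38.53 to 84.34 M) were fitted together with edgeR 4.0.16 (R 4.3.3: TMM scaling, filterByExpr, robust quasi-likelihood, 1 mean per group) and adjusted over 16999 genes. Rows naming no gene (22.71 to 25.2% of reads) were left out. SE is the log2 fold change over the root of F. CPM use TMM scaling. The scripts were tested on simulated data. Replicates differed beyond sampling noise. Splice shares were recomputed from the junction counts, with at least 10 reads in every library, and matched the deposited fraction within 0.5 percentage points. Floors cover counting error only, while SD and SE also hold the spread between libraries.

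The members and the gene lists were chosen with earlier results of these data known. Members above 1 CPM in a group were described in full, list genes were named where called in at least 1 comparison or, after their values were seen, as uncalled or near 0, and likeness named the 2 other genes with the highest Pearson r. CCL5, IKBKG and PECAM1 of the lists were not matched by ID.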

Additional observations from a re-analysis of the deposited data

Results flagged for a closer look

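The 12 genes of the lists named here responded to hypoxia differently under the siRNAs by the interaction test (siARNT minus siControl, log2, edgeR's quasi-likelihood test, adjusted p under 0.05). No member did. In 9 genes the value was negative: FOS (-1.71), IL1B (-1.2), FOSL2 (-0.88), NFKBIA (-0.81), IL1RAP (-0.75), JUND (-0.63), NLRP3 (-0.63), MAFF (-0.62) and TNFAIP3 (-0.52). In 3 it was positive: CHUK (0.7), IL1R1 (0.61) and IL6R (0.58).

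The calls of FOS, FOSL2, IL1B, IL1RAP, IL6R and TNFAIP3 held in all 21 alternatives. Those of CHUK, MAFF, NFKBIA, JUND, IL1R1 and NLRP3 held in 14, 13, 8, 8, 7 and 5.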

How the results depend on the processing

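Each comparison was refitted under 21 or 22 alternatives in scaling, filter, tool, samples, replicate block, GC correction and libraries left out. Of 963 refitted member values, 882 kept their direction and side of the threshold, 23 lost and 32 gained a call, and 26 changed sign, all uncalled and at most 0.19 in size. For hypoxia in siControl the 5 calls varied from 4 to 6 without 1 library, and for siARNT in hypoxia the 3 calls from 2 to 3.

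For hypoxia in siARNT (1 call), CCL20 was added with total count scaling (2), with at least 1 CPM in 3 samples (2) and with DESeq2 (2), CXCL5 was lost with only the samples compared (0), and without 1 library the count was 1 to 2. For siARNT in normoxia (2 calls), CXCL2 was lost with no filter on low counts (1), DESeq2 (1) and only the samples compared (1), and without 1 library the count was 1 to 2. The interaction (0 calls) had 0 to 1 without 1 library, the call being IL18. With the GC correction, and with it and the replicate block, these 3 counts were 4, 5 and 2. With both, the calls over all genes for these 3 were 4065, 5853 and 3293, beside 696, 3431 and 797 without either. For hypoxia in siControl and for siARNT in hypoxia they were 7436 and 8054, beside 4299 and 4948. Member calls with the GC correction and the block stand against these larger numbers, and the counts over all genes with the GC correction alone are not given here.

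Deviations of same-letter libraries of 1 siRNA correlated between -0.43 and 0.52 over 6 pairs, and 4 of 12 libraries matched best with their own letter. These deviations also hold each library's GC profile, so they cannot show whether the letters mark paired cultures. The replicate block alone gave 1 call for siARNT in normoxia (CXCL2 lost) and 1 for the interaction (IL18, -0.36, adjusted p 0.0433).

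Signs changed as follows. LIF was -0.08 for hypoxia in siControl with GC correction, with or without the replicate block, and -0.1 to 0.14 without 1 library. IL1A for hypoxia in siARNT was -0.0012 (replicate block), -0.0024 (replicate block by well), -0.05 (GC correction, with or without the block) and -0.19 to 0.14 without 1 library. For siARNT in normoxia, CXCL3 was -0.21 to 0.01 and CXCL8 -0.04 to 0.27 without 1 library. For siARNT in hypoxia, CCL20 was 0.07 (total count scaling), 0.01 (only the samples compared), 0.1 (GC correction, with or without the block) and -0.13 to 0.06 without 1 library. LIF was 4e-04 (total count scaling) and -0.25 to 0.05, and CXCL5 -6e-04 to 0.17, without 1 library. The interaction of CXCL2 was -0.02 with GC correction, with or without the block. Of 102 calls of the lists, 55 held throughout. Of the others, BIRC3 and IL1R1 (siARNT in normoxia) were lost in 5 and 3 of 21 alternatives. In 2 genes the sign changed with GC correction and with it and the block: RELB (siARNT in normoxia, -0.06 and -0.05) and JUND (interaction, 0.11 and 0.15). The cause was not tested. CXCL1 rests on 34 to 100 reads in a library.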
